A study of Mus musculus with 2 samples.

Results

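The genes of the epithelial junction and of the cadherin switch were followed through cells on day 16 of reprogramming. They were chosen by name, as the rows Cdh1, Cdh2, Cdh11, Epcam, Cldn4, Cldn6, Cldn7, Ocln, Dsp and Tjp1, which are 10 of the 17408 genes in the expression table. The cells were mouse embryonic fibroblasts (MEFs) carrying STEMCCA, a doxycycline-inducible cassette of the factors Pou5f1, Sox2, Klf4 and Myc, kept in mouse embryonic stem cell medium with serum, LIF and ascorbic acid. They were not sorted, so cells that had become pluripotent and cells that had not were in the same suspension. Both libraries were in 1 group, untreated MEFs and established iPSC lines were not analysed here. The study describes 2 independent mouse systems carrying the cassette, and the labels do not tell which library came from which.

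Cadherins join neighbouring cells at adherens junctions, and the classical type I cadherin E-cadherin (Cdh1) is the main one of epithelia and of naive pluripotent cells. Fibroblasts and other mesenchymal cells use N-cadherin (Cdh2) and the type II cadherin OB-cadherin (Cdh11) in its place. Claudins (Cldn4, Cldn6, Cldn7) and occludin (Ocln) are the membrane proteins of tight junctions, ZO-1 (Tjp1) is their scaffold under the membrane, desmoplakin (Dsp) ties desmosomes to keratin filaments, and Epcam is a membrane glycoprotein of epithelial and pluripotent cells that binds claudin 7. During reprogramming of fibroblasts a mesenchymal-to-epithelial transition, with gain of Cdh1 and loss of mesenchymal genes, is known as an early step.

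Replicate 1 held 3109 cells with a median of 15625 unique molecular identifiers (UMIs, each standing for 1 captured RNA molecule) and replicate 2 held 3914 cells with a median of 14292. The cells fell into 18 clusters, found without the 10 members, without 59 other junction genes, without the reprogramming factors and without genes of the sex chromosomes. Cluster 6 (146 cells in replicate 1 and 390 in replicate 2) was pluripotent-like, since 13 of its 13 markers were raised by 2-fold or more. Cluster 10 (199 and 115 cells), led by Spp1, Mmp3 and Col10a1, is called fibroblast-like, with 10 of 12 raised. Of the same fibroblast markers cluster 11 also had 10 raised, cluster 12 had 9 and cluster 5 had 6. Cluster 3 (324 and 321 cells), led by Perp, Krt19 and Msln, is called the keratin-high cluster, since it had 5 of 13 listed epithelial markers raised, the most among non-pluripotent clusters with 30 cells in both libraries. Cluster 13, led by Gpx2, Epcam, Ly6d and Krt8, had 6 of 13 raised but held 71 cells in replicate 1 and 7 in replicate 2. It was singled out after the values were seen, and it stays without a cell type name. All differences below are between states of cells within libraries, and the libraries are the replicates. Since the labels give neither the system nor the culture of a library, a difference between systems and technical spread cannot be told apart, and 12 cell barcodes occurred in both.

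A level below is the mean over the cells of a cluster of the UMIs of a gene per 10000 UMIs of the cell. UMIs are counted at the 3' end of a transcript, so the level does not grow with gene length, but capture differs between genes, and levels are compared here between clusters and not between genes.

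**Figure D1:**
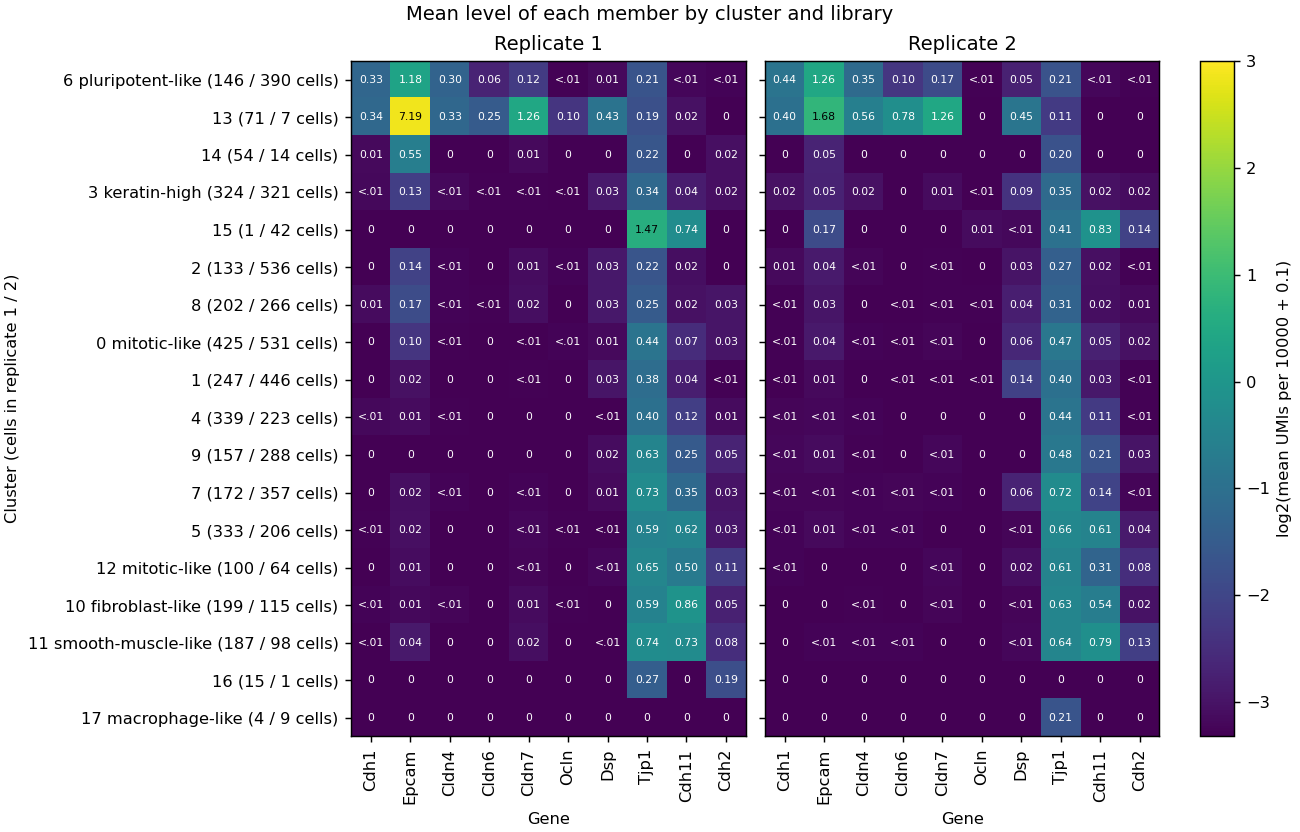
Mean level of the 10 members (columns) in the 18 clusters (rows, with cells in replicate 1 and replicate 2), 1 panel per library; the numbers are UMIs per 10000 and the colour is their log2 after adding 0.1. Cdh1, Cldn4, Cldn6 and Cldn7 stand out in clusters 6 and 13 in both libraries. Cdh11 is high in clusters 5, 10, 11, 12 and 15, and Tjp1 in clusters 5, 7, 10, 11 and 12. Cluster 15 has 1 cell in replicate 1, with a Tjp1 level of 1.47.

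Cdh1 (ENSMUSG00000000303, chr8:106603351-106670246, GRCm38, plus strand) was found mostly in the pluripotent-like cells and in cluster 13. Its level in the pluripotent-like cells was 0.326 in replicate 1 and 0.437 in replicate 2 (mean 0.381 ± 0.0789, SD, n = 2). In cluster 13 it was 0.342 and 0.401, within the range of the pluripotent-like cells. In each of the other clusters it was at or below 0.0222 in both libraries. The fibroblast-like cells of replicate 1 held 1 Cdh1 UMI of 3018936, against 134 of 4228904 in the pluripotent-like cells, a ratio of 95.7 with a 95% counting interval of 16.9 to 3806. Those of replicate 2 held none of 1400268, and with a limit of 3 counts for that library Cdh1 was at least 21.0-fold higher in the pluripotent-like cells. Of all Cdh1 UMIs, 61.5% in replicate 1 and 92.6% in replicate 2 came from pluripotent-like cells, and 28.9% and 1.19% came from cluster 13. The libraries thus differed in which cells carried the Cdh1 RNA, as they did in the cells they held of cluster 13.

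Epcam (ENSMUSG00000045394, chr17:87635979-87651129, plus strand) had the same pair of high clusters, with a different balance. Its level in the pluripotent-like cells was 1.18 in replicate 1 and 1.26 in replicate 2 (mean 1.22 ± 0.0572, SD, n = 2). Cluster 13 reached 7.19 in replicate 1 and 1.68 in replicate 2, and the 7 cells of the second value held 30 Epcam UMIs. A cluster led by Igfbpl1 and Ly6h (cluster 14, 54 and 14 cells) had 0.547 and 0.0534. In the fibroblast-like cells, 2 UMIs were counted in replicate 1 and none in replicate 2, so that the pluripotent-like cells were 175-fold higher in replicate 1 (95% counting interval 48.3 to 1451) and at least 60.0-fold higher in replicate 2. The share of pluripotent-like cells with at least 1 Epcam UMI was 82.2% in replicate 1 and 82.6% in replicate 2, against 1.01% and 0% of the fibroblast-like cells. Median depths were 28768 and 26127 UMIs in the pluripotent-like cells and 13496 and 10607 in the fibroblast-like cells. After every cell had been thinned to 3000 UMIs the shares were 28.1% and 31.5% against 0.503% (1 of 199 cells) in replicate 1 and 0 of 115 cells in replicate 2, which allows up to 2.61%.

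Epcam and the 3 claudins were all higher in the pluripotent-like than in the fibroblast-like cells (tested below), and their promoters are shown for that reason. The hexamer CAGGTG, an E-box that repressors of epithelial genes such as Snai1, Zeb1 and Zeb2 are known to bind, was searched on both strands (as CAGGTG or CACCTG) in RefSeq promoter windows of GRCm38.p6, from 250 bases before to 50 bases after a start site. Windows were found for 7 of the 10 members, and 6 of these held the hexamer in at least 1 window. Cdh1, Cdh2 and Cdh11 had no window and were not searched. Members are counted by gene and some had more than 1 window, so that count is not on the scale of the next shares. Among all 32851 windows 20.2% held the hexamer and 2.88% held it at least 2 times. Epcam had it at positions -187 and -19, counted from +1 at the start site, and Cldn4 at position -14 and, after the start, at position 12. The 250 bases before each start site are given 5' to 3' on the strand of the gene, with the hexamers in capitals; no GENCODE exon of the gene overlaps them. The first is chr17:87635729-87635978 (plus strand) and the second chr5:134946935-134947184 (minus strand).
Epcam: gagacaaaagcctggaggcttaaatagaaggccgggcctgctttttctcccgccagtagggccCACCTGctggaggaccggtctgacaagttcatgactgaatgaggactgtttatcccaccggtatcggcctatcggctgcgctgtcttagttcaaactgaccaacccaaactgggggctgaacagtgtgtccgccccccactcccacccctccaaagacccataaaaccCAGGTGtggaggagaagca
Cldn4: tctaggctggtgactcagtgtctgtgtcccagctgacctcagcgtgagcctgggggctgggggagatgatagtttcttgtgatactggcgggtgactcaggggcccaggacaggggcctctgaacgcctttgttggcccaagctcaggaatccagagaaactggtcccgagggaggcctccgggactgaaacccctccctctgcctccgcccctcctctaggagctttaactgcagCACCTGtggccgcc

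For Cldn6 and Cldn7 the upstream hexamers lie inside exons of another annotated transcript of the same gene, and 30 bases around each are given in the same way. They are at position -93 of Cldn6 (chr17:23679260-23679289) and at positions -97 and -57 of the second of 2 Cldn7 windows (chr11:69965312-69965341 and chr11:69965352-69965381), all on the plus strand, while the first Cldn7 window had none.
Cldn6 at -93: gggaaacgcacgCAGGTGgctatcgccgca
Cldn7 at -97: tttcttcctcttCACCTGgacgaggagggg
Cldn7 at -57: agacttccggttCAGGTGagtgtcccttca

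Ocln and Dsp, which did not pass that test, also held the hexamer, and Tjp1, which was lower in the pluripotent-like cells, had none. A match says only that these letters are in the window.

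Of the 3 claudins, Cldn7 and Cldn6 had higher levels in cluster 13 than in the pluripotent-like cells in both libraries, and the Cldn4 value of cluster 13 in replicate 2 rested mainly on 1 cell. Cldn7 (ENSMUSG00000018569, chr11:69964779-69967885) had a level of 0.115 and 0.171 in the pluripotent-like cells and of 1.26 in both libraries in cluster 13. Of the 21 Cldn7 UMIs of cluster 13 in replicate 2, 10 were in 1 cell, and without the highest cell the level was 0.898. At least 1 Cldn7 UMI was found in 21.2% and 23.8% of the pluripotent-like cells and in 80.3% and 57.1% of the cells of cluster 13, against 2.01% and 0.870% of the fibroblast-like cells. Of the Cldn7 UMIs of replicate 1, 71.8% came from the 71 cells of cluster 13.

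Cldn6 (ENSMUSG00000023906, chr17:23679249-23682446), a claudin of embryonic epithelia and pluripotent cells, was at 0.0554 and 0.102 in the pluripotent-like cells. It was at 0.251 and 0.779 in cluster 13, and the fibroblast-like cells of both libraries held none. Of the 11 Cldn6 UMIs of cluster 13 in replicate 2, 7 were in 1 cell, and without the highest cell the level was 0.407. Cldn4 (ENSMUSG00000047501, chr5:134945119-134946934, minus strand) was at 0.301 and 0.354 in the pluripotent-like cells and at 0.333 and 0.564 in cluster 13. In replicate 2, 1 of the 7 cells of cluster 13 held 9 of their 12 Cldn4 UMIs, and the other 6 cells had a mean level of 0.138. Cldn4 was found in 33.8% of the cells of cluster 13 and 47.3% of the pluripotent-like cells in replicate 1, and in 42.9% and 50.5% in replicate 2. With 7 cells of cluster 13 in replicate 2 these differences were not tested.

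**Figure D2:**
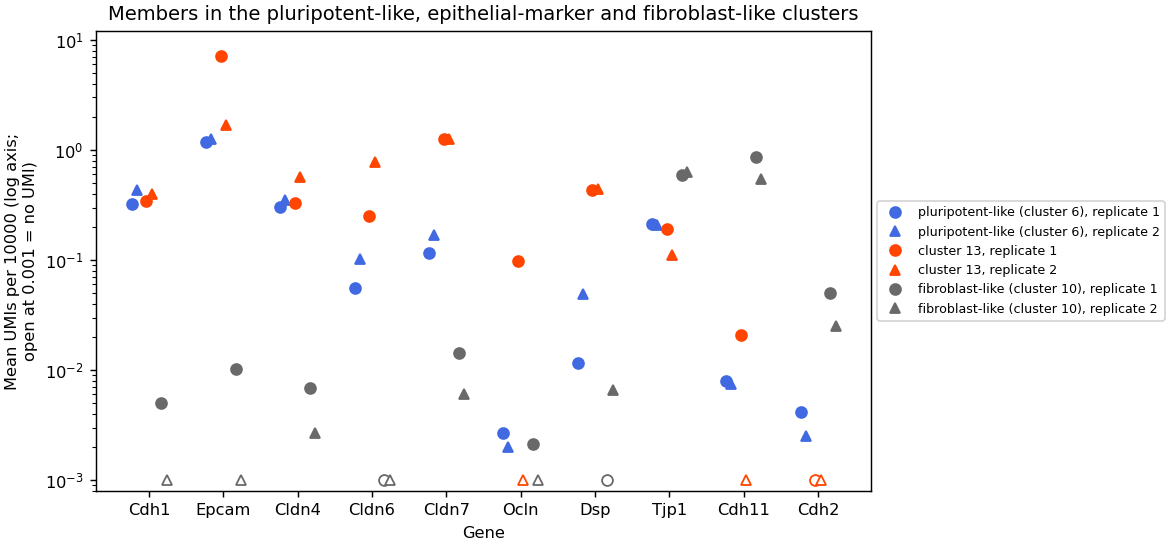
Level of each member (UMIs per 10000, log axis) in the pluripotent-like cells, cluster 13 and the fibroblast-like cells, with 1 point per library; open points at the foot of the axis are clusters without a UMI of that gene. Cldn7 was higher in cluster 13 than in the pluripotent-like cells in both libraries, the Dsp value of cluster 13 in replicate 2 comes from 1 cell, and Cdh11 and Tjp1 were highest in the fibroblast-like cells.

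Dsp, Ocln and Tjp1 did not follow Cdh1. Dsp (ENSMUSG00000054889, chr13:38151294-38198577) was at 0.429 in cluster 13 of replicate 1, in 54.9% of its cells. The 0.445 of replicate 2 came from 1 of 7 cells, with 9 UMIs, and the other 6 had none. In the pluripotent-like cells it was at 0.0116 and 0.0490, within the range of several non-pluripotent clusters. In the cluster led by Nxpe2 and Ntrk2 (cluster 1) it was at 0.0273 and 0.135, and in the keratin-high cluster at 0.0342 and 0.0915. Replicate 2 had the higher Dsp level in 10 of 13 clusters with 30 cells in both libraries, and 342 Dsp UMIs in all against 153. Outside clusters 6 and 13, Dsp was detected in 57 of 2892 cells of replicate 1 and in 208 of 3517 cells of replicate 2.

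Ocln (ENSMUSG00000021638, chr13:100496507-100552718, minus strand) was close to the limit of detection, with 23 UMIs in replicate 1 and 7 in replicate 2. Of the 23, 13 were in cluster 13, in 15.5% of its cells. The pluripotent-like cells held 1 and 2 Ocln UMIs and the fibroblast-like cells 1 and none, so that a difference between them was not detectable at this depth.

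Tjp1 (ENSMUSG00000030516, chr7:65296165-65527781, minus strand) was detected in 46.0% of all cells in replicate 1 and 43.6% in replicate 2. Among the 13 clusters with 30 cells in both libraries the pluripotent-like cells had the lowest mean level, 0.210 ± 0.00435 (SD, n = 2), with 0.213 and 0.207, and their values did not overlap those of the next cluster, at 0.216 and 0.275. Cluster 7, led by Smoc2 and Pcp4, had the highest mean level, with 0.726 and 0.723, and its values overlapped those of cluster 11, at 0.742 and 0.636. Cluster 13 had 0.190 and 0.111, the second from 2 UMIs. Among those 13 clusters, this scaffold gene was thus lowest in the one where the 3 claudins were highest.

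Of the mesenchymal cadherins, Cdh11 (ENSMUSG00000031673, chr8:102632095-102785642, minus strand) carried the contrast between states. It was at 0.731 in replicate 1 and 0.792 in replicate 2 in the smooth-muscle-like cluster (cluster 11), at 0.857 and 0.542 in the fibroblast-like cells and at 0.625 and 0.609 in the cluster led by Rgcc and C1qtnf3 (cluster 5). The range of the fibroblast-like cells overlapped those of both other clusters, which did not overlap each other, and that of cluster 5 did not overlap that of cluster 12, the next, at 0.503 and 0.313. In the pluripotent-like cells Cdh11 was at 0.00803 and 0.00743, below each of the other 12 clusters in both libraries. It fell 72.1-fold from fibroblast-like to pluripotent-like cells in replicate 1 (95% counting interval 27.8 to 267) and 55.0-fold in replicate 2 (27.3 to 126). Between these ends Cdh11 was graded: 0.249 and 0.209 in the cluster led by Mmp11 and Dcn (cluster 9), 0.124 and 0.109 in that led by Sostdc1 and Rarres2 (cluster 4), and 0.0398 and 0.0219 in the keratin-high cluster. A cluster led by Trf, Saa3 and Krt7 (cluster 15), with 5 of 13 epithelial markers raised, had 0.830 in its 42 cells of replicate 2, so raised epithelial markers and high Cdh11 also stood together.

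Cdh2 was low throughout. Its highest levels in clusters with 30 cells in both libraries were 0.0780 and 0.125 in the smooth-muscle-like cluster and 0.110 and 0.0782 in cluster 12, a mitotic-like cluster in which 9 of 12 fibroblast markers were raised. In the fibroblast-like cells Cdh2 was at 0.0498 and 0.0249, in 8.04% and 3.48% of cells, and Cdh11 was detected in 49.2% and 29.6% of the same cells. The pluripotent-like cells held 2 and 3 Cdh2 UMIs, and the fibroblast-like cells had a level 11.9-fold (95% counting interval 2.83 to 106) and 12.3-fold (2.40 to 79.3) higher by summed UMIs. Cluster 13 held none, where 0 of 71 cells of replicate 1 allow a share of up to 4.23%. The switch between cadherins was thus read mainly from Cdh1 and Cdh11, and that from Cdh1 to Cdh2 rested on few UMIs.

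The differences were tested with limma on log2(level + 0.1) over the 26 profiles of 13 clusters and 2 libraries, with adjusted p-values by Benjamini-Hochberg. Only Cdh11, Epcam and Tjp1 passed a filter of a mean level of 0.1 over all cells. Epcam passed it largely through the clusters where it was high. Pluripotent-like cells held 24.0% and 88.2% of its UMIs in replicates 1 and 2, and cluster 13 held 57.3% and 1.99%. Its call as higher there with the filter thus gives no separate support. All 10 members were also tested in a fit of every gene. In that fit 5 of the 10 members were higher in the pluripotent-like than in the fibroblast-like cells and 3 were lower, against 26.5% higher and 29.2% lower of all 17408 genes. Higher were Epcam by 3.65 (SE 0.24, adjusted p = 1.9e-09), Cdh1 by 2.22 (SE 0.08, adjusted p = 1.9e-12), Cldn4 by 2.03 (SE 0.05, adjusted p = 2.9e-14), Cldn7 by 1.13 (SE 0.10, adjusted p = 9.2e-08) and Cldn6 by 0.82 (SE 0.07, adjusted p = 3.4e-08). Lower were Cdh11, which fell by 2.86 (SE 0.19, adjusted p = 2.7e-09), Tjp1, which fell by 1.20 (SE 0.11, adjusted p = 1.1e-07), and Cdh2, which fell by 0.40 (SE 0.12, adjusted p = 0.0077). Dsp (0.32, SE 0.20, adjusted p = 0.18) and Ocln (0.02, SE 0.02, adjusted p = 0.53) did not pass. These differences are on the scale of log2(level + 0.1), which understates the change of low genes, and the folds of genes without a UMI in 1 class depend on that 0.1.

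Both libraries gave the same direction for each of the 10 members, from 3.54 and 3.77 for Epcam to -0.52 and -0.28 for Cdh2. With the filter, 1 of the 3 members tested was higher and 2 were lower, beside 32.9% and 45.1% of 7131 genes, whose median difference was -0.18. Against the mean of the other 12 clusters, the count over all 10 members was again 5 higher and 3 lower, beside 28.9% and 28.5% of all genes; with the filter it was 1 and 2 of 3, beside 33.8% and 46.7%. Epcam was 3.34 higher there in the fit of every gene (SE 0.17, adjusted p = 1.0e-10). In the filtered fit Cdh11 fell by 1.38 (SE 0.13, adjusted p = 7.6e-10) and Tjp1 fell by 0.89 (SE 0.09, adjusted p = 1.5e-09). Members took no part in the clustering, but genes that vary with them did. Each fit took out the mean difference between the libraries. The p-values therefore rest on how far differences between clusters varied from library to library, pooled over all profiles. The filtered fit had 23.7 degrees of freedom and the fit of every gene 15.2, although only 2 libraries were used. Profiles of 1 library thus counted as separate observations, and the p-values do not measure the spread among further libraries. The share of members that were lower, 3 of 10, was near that of all genes.

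The keratin-high cluster was set against the other non-pluripotent clusters, to see whether the members marked its cells too. Epcam was at 0.127 in replicate 1 and 0.0512 in replicate 2. In the fit of every gene it was 0.55 higher than the mean of the others (SE 0.18, adjusted p = 0.036, limma). With the filter its adjusted p was 0.0065 (SE 0.16, limma). The filtered call was lost with a finer clustering (0.12, adjusted p = 0.63), with 4000 variable genes (0.44, adjusted p = 0.067) and with the members allowed in the clustering (0.27, adjusted p = 0.24). With the filter, Cdh11 fell by 1.20 (SE 0.13, adjusted p = 9.6e-08) and Tjp1 fell by 0.40 (SE 0.09, adjusted p = 8.0e-04). Cldn4 was 0.17 higher without the filter (SE 0.04, adjusted p = 0.0033), from 6 and 8 UMIs. Cdh1 (0.16, SE 0.06, adjusted p = 0.072) and Dsp (0.42, SE 0.15, adjusted p = 0.056) did not pass. Over all 10 members 2 were higher and 2 lower, beside 10.0% and 10.2% of all genes, and with the filter 1 and 2 of 3 were, beside 22.0% and 20.3%.

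Any difference among the 13 clusters was tested by limma's F statistic in the same fits. All members but Ocln (adjusted p = 0.73) passed, with Dsp the weakest of the other 9 (adjusted p = 0.025), and 67.6% of all genes did. Of the genes past the filter 94.4% did, and so did Cdh11, Epcam and Tjp1.

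Single cells were then examined for whether members were present together. Among the 5 members that were higher in the pluripotent-like cells, at the deposited depth, 2 or more were found in 101 of 146 pluripotent-like cells of replicate 1 (69.2%, 95% exact binomial interval 61.0 to 76.5) and in 297 of 390 of replicate 2 (76.2%, interval 71.6 to 80.3). In cluster 13 this was so in 61 of 71 and 6 of 7 cells, and in the fibroblast-like cells in 0 of 199 and 0 of 115. The 5 members were chosen by the test above in these same cells, so the contrast with the fibroblast-like cells repeats that choice. Thinned to 3000 UMIs per cell the shares were 6.85% and 12.3% in the pluripotent-like cells and 45.1% and 28.6% in cluster 13. All 5 members were detected together in 3 and 19 pluripotent-like cells, and none of the 5 in 9 and 20. The intervals cover counting error only.

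**Figure D3:**
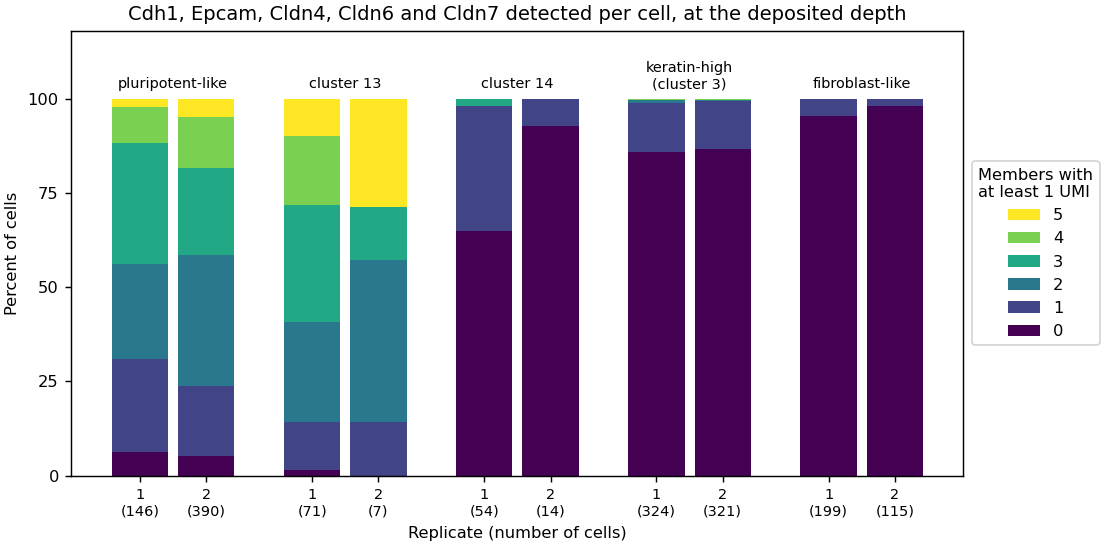
Percent of cells in which 0 to 5 of the members Cdh1, Epcam, Cldn4, Cldn6 and Cldn7 had at least 1 UMI, at the deposited depth, for 5 clusters and both libraries (cells in parentheses). In the fibroblast-like cells 95.5% and 98.3% of cells had none of the 5, and in the pluripotent-like cells 6.16% and 5.13%. The 5 were chosen for being higher in the pluripotent-like than in the fibroblast-like cells.

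Within the pluripotent-like cells and at the deposited depth, each of the 10 pairs of these 5 members was found in more cells than the product of the single shares gives, in both libraries. Cdh1 and Epcam were both detected in 73 cells of replicate 1, where the product is 70.7, and in 208 of replicate 2, where it is 197. Cdh1 and Cldn7 were together in 22 cells against 18.3 and in 71 against 57.0, and Cldn4 and Cldn7 in 19 against 14.7 and in 60 against 47.0. Cldn6 and Cldn7 were together in 8 cells against 3.40 in replicate 1 and in 30 against 16.2 in replicate 2. Cells at the deposited depth differ in UMIs, and the part of depth in these counts was not tested. Pairs of genes outside the members were not counted. At 3000 UMIs per cell, 2 of the 10 pairs in replicate 1, where 6 were found in no cell, and all 10 in replicate 2 were above the product. These counts are small: Cdh1 and Epcam were together in 4 cells against 3.93 and in 18 against 15.1, and Cldn6 and Cldn7 in 0 against 0.0342 and in 4 against 0.462.

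Cdh1 and Cdh2 were never detected in the same cell at 3000 UMIs per cell, in 0 of 3109 and 0 of 3914 cells, which allows shares of up to 0.0965% and 0.0766%. At that depth Cdh1 was detected in 25 and 54 cells and Cdh2 in 23 and 16, and the products of the shares give 0.185 and 0.221 cells, which is under 1 cell. At 4500 UMIs per cell 1 cell had both. At the deposited depth 5 cells of replicate 1 and 1 cell of replicate 2 had both, where the products are 6.20 and 6.88. These cells had median depths of 36600 and 35332 UMIs, and 3 of the 5 and the 1 were among the deepest 5% of their libraries. Cdh1 and Cdh11 were both detected in 8 and 11 cells, where the products are 26.6 and 32.3, and 4 and 7 of these were pluripotent-like. Cdh11 was detected in 4 and 8 pluripotent-like cells in all, and 4 and 7 of those also had Cdh1. Of all pluripotent-like cells 58.9% and 61.3% had Cdh1 at this depth. With so few cells with Cdh11 a difference from that share was not tested. All products here are over every cell of a library, whose clusters differ in these genes. A count below the product therefore does not show exclusion within a state. Epcam and Cdh11 were both detected in 27 and 13 cells against products of 73.6 and 52.4. Of all these cells 1 was called a doublet by Scrublet, which marked 5 and 2 cells of the libraries, too few for the caller to have worked, so the part of doublets was not tested.

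By cadherin, 54.8% and 59.2% of the pluripotent-like cells had Cdh1 alone at the deposited depth, and 41.1% and 37.9% had none of Cdh1, Cdh2 and Cdh11. In the smooth-muscle-like cluster 55.6% and 52.0% had Cdh11 alone and 4.28% and 10.2% had Cdh2 and Cdh11 without Cdh1. Clusters 1 and 2, led by Nxpe2 and by Tac2, had none of the cadherins in 95.5% and 97.0% of the cells in replicate 1 and in 96.0% and 96.1% in replicate 2. These clusters, with 693 and 669 cells, were thus low in the mesenchymal cadherins and in Cdh1, which was found in none of their cells in replicate 1 and in 1 of 446 and 8 of 536 in replicate 2, at median depths of 12224 and 13457 UMIs.

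Outside the pluripotent-like cells and cluster 13, Cdh1 was detected in 15 of 2892 cells of replicate 1 (0.519%) and in 30 of 3517 of replicate 2 (0.853%), and Epcam in 175 (6.05%) and 113 (3.21%). With at least 2 UMIs, Epcam was found in 55 and 18 cells and Cdh1 in 4 and 1. Cells with Epcam were deeper than all these cells, with medians of 18234 against 15064 UMIs and 17958 against 13641. They also held a UMI of the pluripotency genes Dppa5a, Utf1 or Tdgf1 more often, in 44.6% against 29.8% and 54.0% against 45.5%, and the part of free RNA and of depth was not tested. At the deposited depth the Epcam shares of replicate 1 were 15.3% in the S-phase cluster (cluster 8), 14.3% in cluster 2, 11.1% in the keratin-high cluster and 35.2% in cluster 14, against 0% in cluster 9 and 1.01% in the fibroblast-like cells. In replicate 2 the same clusters had 5.26%, 4.10%, 8.10% and 7.14%, against 1.39% and 0%. Median depths in replicate 1 ran from 9733 UMIs in cluster 9 to 19722 in the keratin-high cluster. Thinned to 3000 UMIs, the shares in clusters 8, 3 and 14 were 5.94%, 2.78% and 11.1% in replicate 1, with 2 of 133 cells in cluster 2, against 0% in cluster 9 and 0.503% in the fibroblast-like cells. In replicate 2 they were 0.752%, 2.49% and 0%, with 5 of 536 cells in cluster 2, against 0% in both.

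In cluster 11 of replicate 1, 22 of the 24 Epcam UMIs were in 1 cell, and in cluster 15 of replicate 2 all 9 were. The ratio of Epcam to Cdh1 UMIs was 3.66 (95% counting interval 3.02 to 4.47) in the pluripotent-like cells of replicate 1, 18.6 (14.4 to 24.3) in cluster 13 and 18.2 (11.7 to 29.7) in the cells outside both. In replicate 2 it was 2.85 (2.57 to 3.18), 5.00 (2.05 to 14.7) and 4.77 (3.22 to 7.28). In each library the cells outside both clusters thus had more Epcam for each Cdh1 UMI than the pluripotent-like cells did. The intervals take each UMI as independent, although single cells outside held up to 28 Epcam UMIs in replicate 1 and 9 in replicate 2. In replicate 2 the bounds nearly met, at 3.18 and 3.22, so the intervals do not settle the difference there.

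The other genes of junctions and of the transition were taken as a list of 64 genes, of which 59 were in the table (6 under older symbols). In the comparison of pluripotent-like with fibroblast-like cells and without a filter, 28 were higher (47.5%, beside 26.5% of all genes) and 14 lower (23.7%, beside 29.2%), with a median of 0.10 where the median of all genes was 0. With the filter 9 of 24 were higher and 10 lower, near the 32.9% and 45.1% of all genes past it. Values below are from the fit without a filter.

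Of the adherens junction genes 5 of 12 were higher (41.7%) and 3 lower, the second near the 29.2% of all genes. Cdh3 (P-cadherin) was 0.89 higher (SE 0.19), Mllt4 (afadin, which links nectins to actin) 0.88 higher (SE 0.12) and Pvrl2 (nectin-2) 0.48 higher (SE 0.12), followed by Jup (plakoglobin, also a part of desmosomes) at 0.45 (SE 0.14). Cdh13 (T-cadherin, which lacks a cytoplasmic tail) fell by 2.29 (SE 0.14), Ctnnd1 (p120-catenin) fell by 1.18 (SE 0.10) and Ctnnb1 (beta-catenin) fell by 1.00 (SE 0.10). Of the catenins that bind the tails of cadherins, Ctnnb1 and Ctnnd1 were thus lower and Jup higher, and Ctnna1 (alpha-catenin) did not pass (-0.18, SE 0.10, adjusted p = 0.15, limma).

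Tight junction genes had 8 of 15 higher and 1 lower (53.3% and 6.67%, beside 26.5% and 29.2% of all genes). Crb3, of the apical polarity complex, was 1.69 higher (SE 0.10) and F11r (JAM-A) 1.26 higher (SE 0.24), and Cldn12 fell by 0.38 (SE 0.13). Of the desmosome genes 4 of 9 were higher (44.4%) and none lower, led by the plakophilin Pkp2 (1.33, SE 0.10), the desmosomal cadherin Dsg2 (0.92, SE 0.06) and Pkp3 (0.80, SE 0.09), with Pkp4 at 0.71 (SE 0.17), while Perp did not pass (0.47, SE 0.32, adjusted p = 0.23, limma).

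Of the epithelial regulators 11 of 13 were higher, by as little as 0.06, beside 26.5% of all genes. They were led by Spint2 (2.56, SE 0.16) and Spint1 (2.17, SE 0.12), inhibitors of membrane serine proteases, and by the transcription factor Elf3 (2.14, SE 0.09). All 10 mesenchymal genes were lower, beside 29.2% of all genes: the homeobox factor Prrx1 fell by 4.19 (SE 0.13), Vim (vimentin) fell by 3.94 (SE 0.13) and Fn1 (fibronectin) fell by 3.23 (SE 0.14). The known repressors of Cdh1 were among them, where Zeb2 fell by 2.08 and 2.24 and Zeb1 fell by 1.71 and 1.90 in the 2 libraries.

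**Figure D4:**
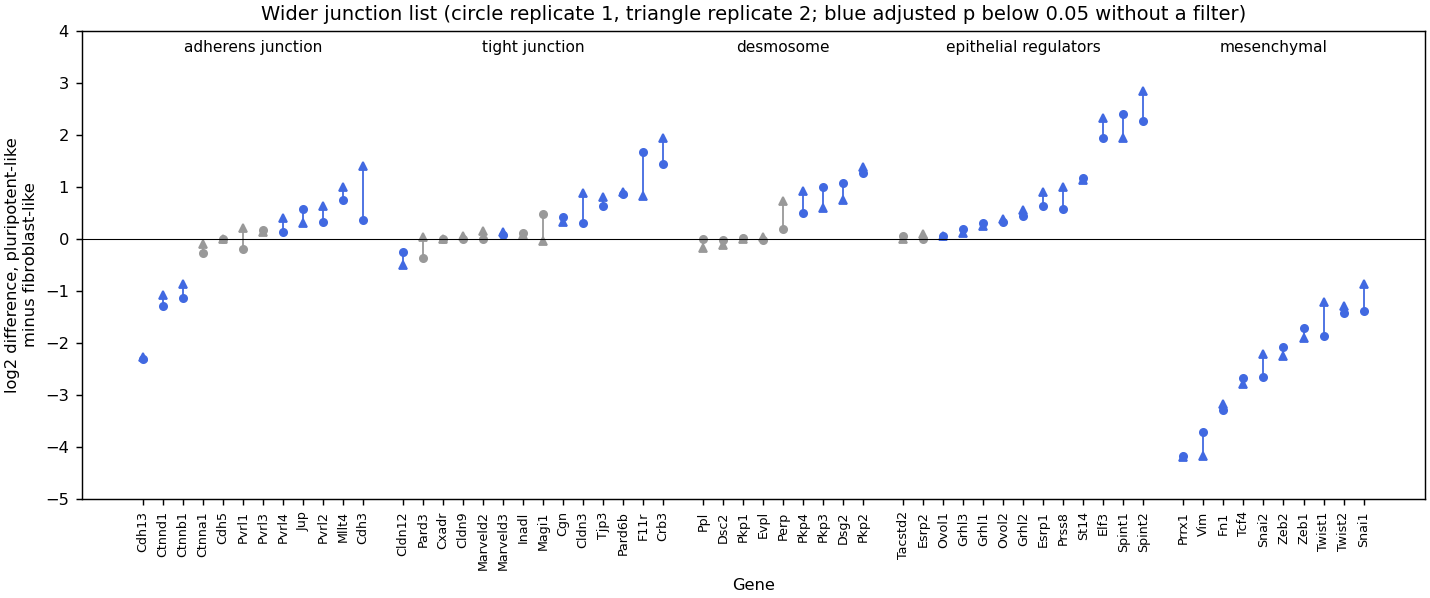
Difference of pluripotent-like from fibroblast-like cells, in log2(level + 0.1), for 58 genes of the wider list in 5 groups, with 1 point per library; blue marks an adjusted p below 0.05 (limma, all genes). All 10 mesenchymal genes lie below 0 in both libraries, and the 11 epithelial regulators in blue lie above it.

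Among the members, Tjp1 and Cdh11 were most alike over the 26 profiles (Spearman's rho 0.89), and Cdh2 and Cdh11 followed (0.79). Cdh11 and Epcam were opposed (-0.70), as were Epcam and Tjp1 (-0.70), and Cdh1 and Cldn4 had a rho of 0.62. Over all genes past the filter, those most like Cdh11 were Fhl2 (0.98), Rnf11 (0.97), Igfbp7 (0.97), Sh3pxd2a (0.97) and Gng11 (0.97). For Cdh2 they were 1700020I14Rik (0.93), Dnajc3 (0.92), Mgat4b (0.90), Stard3nl (0.90) and Gna11 (0.90), and for Cdh1 Rbfa (0.74), Trap1a (0.68), Lactb2 (0.64), Ndufa7 (0.63) and Ubxn1 (0.63). Most of the profiles had Cdh1 at or near 0. Profiles of 1 library share that library, and these correlations are a description.

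**Figure D5:**
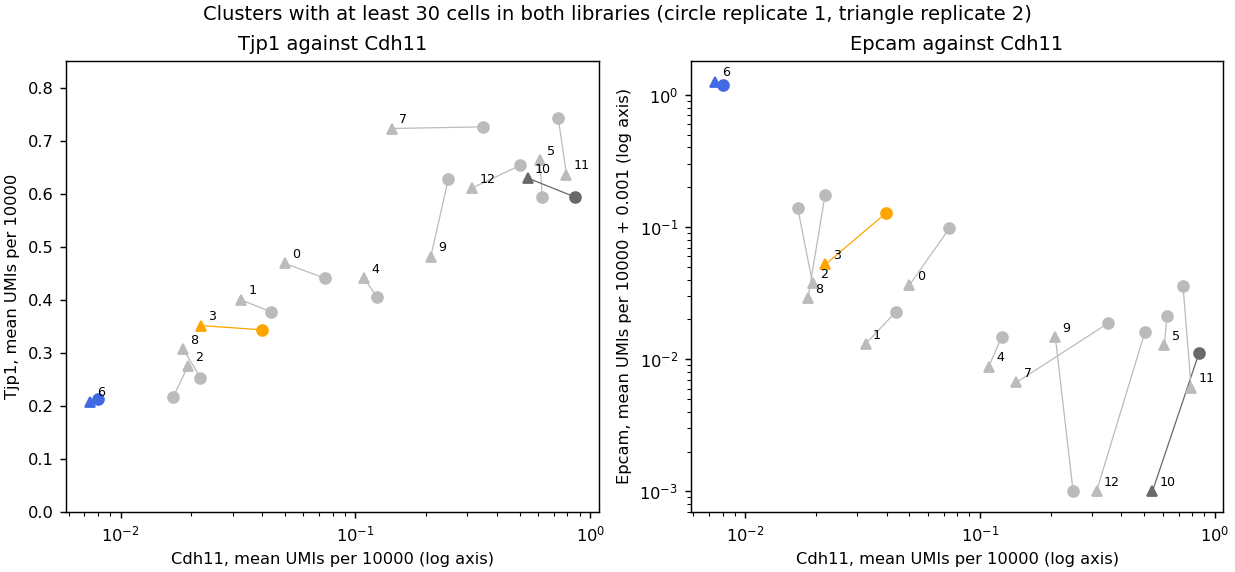
Level of Tjp1 (left) and of Epcam plus 0.001 (right, log axis) against that of Cdh11 (log axis), in UMIs per 10000, with a line joining the 2 libraries of each of 13 numbered clusters; blue is the pluripotent-like, orange the keratin-high and dark grey the fibroblast-like cluster. The pluripotent-like cells lie apart at the lowest Cdh11 and the highest Epcam, at 0.00803 and 1.18 in replicate 1.

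Pluripotent-like cells with at least 1 UMI of Dppa3, a gene of germ cells and naive pluripotency, had higher claudin levels than those without. Cldn7 was at 0.155 against 0.0525 in replicate 1 and at 0.217 against 0.115 in replicate 2, and Cldn6 at 0.0736 against 0.0271 and at 0.141 against 0.0552. For Cdh1 the values were 0.336 against 0.310 and 0.447 against 0.425. Cells with Dppa3 had median depths of 29424 and 27517 UMIs and those without had 27522 and 24097, and with 2 libraries the difference was not tested.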

How the data were processed

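Droplet 3' single-cell RNA-seq of 2 libraries of 1 group (day 16) was used. Per the labels and the study's methods, the authors counted reads with Cell Ranger (version 2.1.1, mm10), filtered cells on detected genes and mitochondrial RNA and normalised them in Seurat. The deposited values are natural log values, ln(1 + UMIs per 10000 UMIs of the cell). With the log undone, the sum per cell was 10000, and dividing by the lowest non-zero entry of each cell gave whole numbers (tolerance 0.01) for 100% of entries, so UMIs were recovered. Totals were 54145377 and 64654306 UMIs, and cells had 4753 to 60990.

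Cells were clustered on 2000 variable genes (30 components, 15 neighbours, Leiden resolution 1, scanpy 1.11.5, leidenalg 0.10.2). Left out were 676 genes of the table: members, wider list, sex-linked genes and the reprogramming factors. Clusters were named by 91 listed markers in the table of 10 classes (at least 3 and 50% of a class raised 2-fold). Profiles (mean per cluster and library, at least 30 cells in each) were tested with limma 3.58.1 (R 4.3.3) on log2(level + 0.1), with terms for cluster and library, and Benjamini-Hochberg adjustment at 0.05. On simulated data for the pluripotent-like and fibroblast-like comparison (7131 genes, 200 changed 4-fold), 99.0% of the changed genes were called, and unchanged genes made up 6.60% of calls. There the 2 classes were alike in all other genes, and the spread between libraries was set and not taken from the data. Only genes past the filter were fitted, so these rates do not cover the calls of Cdh1, Cdh2, the claudins, Ocln and Dsp. Co-detection was counted at the deposited depth and in cells thinned at random to 3000 UMIs, as stated beside each value.

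Members and lists were chosen with earlier results of these data known. Beside the members, the text names the 3 largest rises and falls of each group of the wider list past the threshold, with and without the filter, and the 5 genes most like each cadherin; 1 tight junction gene, included in the counts, is not reported here. Ctnna1, Perp, Zeb1, Zeb2 and cluster 13 were named after their values were seen. Coordinates are from GENCODE M21 and RefSeq (GRCm38). No exon of another gene overlaps those of a member on the same strand. Alternatives are given in the closing section.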

Additional observations from a re-analysis of the deposited data

How the results depend on the processing

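Without a filter on low values, 8 of the 10 members passed the test in the comparison of pluripotent-like with fibroblast-like cells and 8 against the other clusters, beside 3 of 3 with the filter. The genes called rose to 9711 and 10004, and those of the wider list to 42 and 44. With a mean of at least 0.5, no member was tested, 1881, 1888 and 1308 genes were called in the 3 comparisons (the third being the keratin-high cluster), and 7 genes of the wider list in each. These counts follow from the number of genes tested (17408 and 2201 in place of 7131). Epcam in the keratin-high cluster was no longer called with resolution 2, 4000 variable genes or the members in the clustering; the cause was not tested. Of the other 150 member values 147 kept their direction. The 3 that turned were not called and turned with a library left out. They were Dsp against the other clusters (from 0.07 to -0.03) and, in the keratin-high cluster, Cldn6 (0.01 to -0.03) and Cldn7 (0.04 to -0.07). Only Cdh11, Epcam and Tjp1 were refitted under the other clusterings, added constants and sets of cells. For the other members these values are single libraries of the same fit, so their dependence on those settings was not tested. The other 94 counts and shares moved by at most 1.5 times, except the share of cells with both Cdh1 and Cdh2, which went from 0% to 0.0128% (1 cell) at 4500 UMIs and 0.0932% (6 cells) without thinning. Leaving out either library gave values with no test. Shares of cells are limited by depth: Ocln, Cldn6 and Cdh2 rest on few UMIs.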
